A study of Mus musculus with 4 samples.

Results

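Among plaque cells of 2 mouse genotypes, 80 cells stood out by 6 genes that most other plaque cells lacked or held at low levels: *Adamtsl1*, *Mdga2*, *Tmtc2*, *Phactr1*, *Bmpr1b* and *Prss12*. They were chosen by a score, the mean over these 6 genes of log2(value + 1), where the value is the number of unique molecular identifiers (UMIs, which count each captured RNA molecule once) per 10000 UMIs of the cell. The 80 plaque cells with the highest score, out of 1502 and 929 cells in 2 libraries, are called members here. They made up 3.29% of the plaque cells, and they are compared with the other 2351 plaque cells. The series held 12790 cells in all.

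Plaques were micro-dissected from aortic root, arch and carotid arteries and their cells were sequenced singly on the 10x Chromium system. The *ApoE*-/- mice, which lack apolipoprotein E and develop atherosclerosis when fed fat, carried the Myh11-CreERt2 and Confetti transgenes, so that tamoxifen switched on 1 of 4 fluorescent proteins in vascular smooth muscle cells (VSMCs), a mark their progeny keep, and the Cre is expressed in males only. The *Trf2T188A*/*ApoE*-/- mice carried in addition a mutant TRF2, a protein that protects chromosome ends, driven in VSMCs by a minimal *Sm22a* promoter. Both genotypes were of C57Bl6/J background, received tamoxifen at 6 weeks of age, rested 1 week and ate a high fat diet for 14 weeks. A second experiment, 28 days after ligation, took the carotid artery of C57Bl/6 mice that carried *Trf2T188A* under the *Sm22a* promoter and of wild type controls. For the ligated mice the study's methods name males, several months old at surgery. No *ApoE*-/- genotype and no high fat diet is named for them. Each genotype gave 1 library in each experiment and the number of mice behind a library is not given in the sources used here, so that no test across animals was possible, animal and genotype cannot be told apart, and every interval below is a 95% interval of counting error only.

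Smooth muscle cells of the artery wall normally hold a contractile programme of actin, myosin and calponin, and in plaques many of them lose it and come to resemble fibroblasts or cartilage cells. Bone morphogenetic proteins (BMPs) signal through receptors such as the one encoded by *Bmpr1b*, and secreted antagonists such as noggin, gremlin and sclerostin hold BMP or Wnt signals back. Members of the ADAMTS-like family, to which *Adamtsl1* belongs, are secreted matrix proteins without a protease domain, several of which bind the fibrillin scaffold of elastic fibres.

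The plaque libraries held 1502 *ApoE*-/- and 929 *Trf2T188A*/*ApoE*-/- cells, with a median of 22766 and 24377 UMIs per cell, and shared no cell barcode. UMIs of the TRF2 transgene were found in 9 of 929 *Trf2T188A*/*ApoE*-/- cells and in 0 of 1502 *ApoE*-/- cells, which allows a share of cells with such a UMI of up to 0.2%. None of the 37 members of the *Trf2T188A*/*ApoE*-/- library held a transgene UMI. With so few in the library as a whole, this does not bound the share of members that carried the transgene. Scrublet, a doublet caller, marked 3 plaque cells, 1 of them a member, so few that the caller cannot have worked, and no doublets were removed. The median doublet score was 0.0566 in members and 0.0644 in other cells.

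The 6 genes that chose the members differ in function. *Adamtsl1* encodes an ADAMTS-like matrix protein, *Mdga2* a cell-surface protein that binds neuroligins, *Tmtc2* an enzyme that adds mannose to cadherins, *Phactr1* a regulator of actin and protein phosphatase 1 at a locus tied to coronary disease, *Bmpr1b* a type I BMP receptor, and *Prss12* the secreted protease neurotrypsin. Their levels are a description of the choice and not a result. *Adamtsl1*, at chr4:85513852-86428390 (GRCm38), reached a mean of 26.7 UMIs per 10000 in *ApoE*-/- members against 0.212 in other cells of that library, and of 14.4 against 0.109 in the *Trf2T188A*/*ApoE*-/- library. The highest *ApoE*-/- member held 21.9% of the summed level there, and without it the mean was 21.4. *Mdga2*, at chr12:66459419-67222549, gave 5.24 against 0.0616 and 3.34 against 0.0395. *Tmtc2*, at chr10:105187663-105574479, gave 18.6 against 2.64 and 12.3 against 2.67.

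*Phactr1*, at chr13:42680374-43138526, gave 6.18 against 1.25 in the *ApoE*-/- library and 8.42 against 1.21 in the other. *Bmpr1b*, at chr3:141837135-142169585, gave 6.35 against 1.14 and 6.4 against 1.17. *Prss12*, at chr3:123446913-123506602, gave 2.0 against 0.0625 and 2.94 against 0.0747. A UMI of *Adamtsl1*, *Mdga2* and *Prss12* was found in 6.47%, 3.28% and 10.6% of other cells, and of *Tmtc2*, *Phactr1* and *Bmpr1b* in 84.3%, 72.8% and 59.8%.

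**Figure D1:**
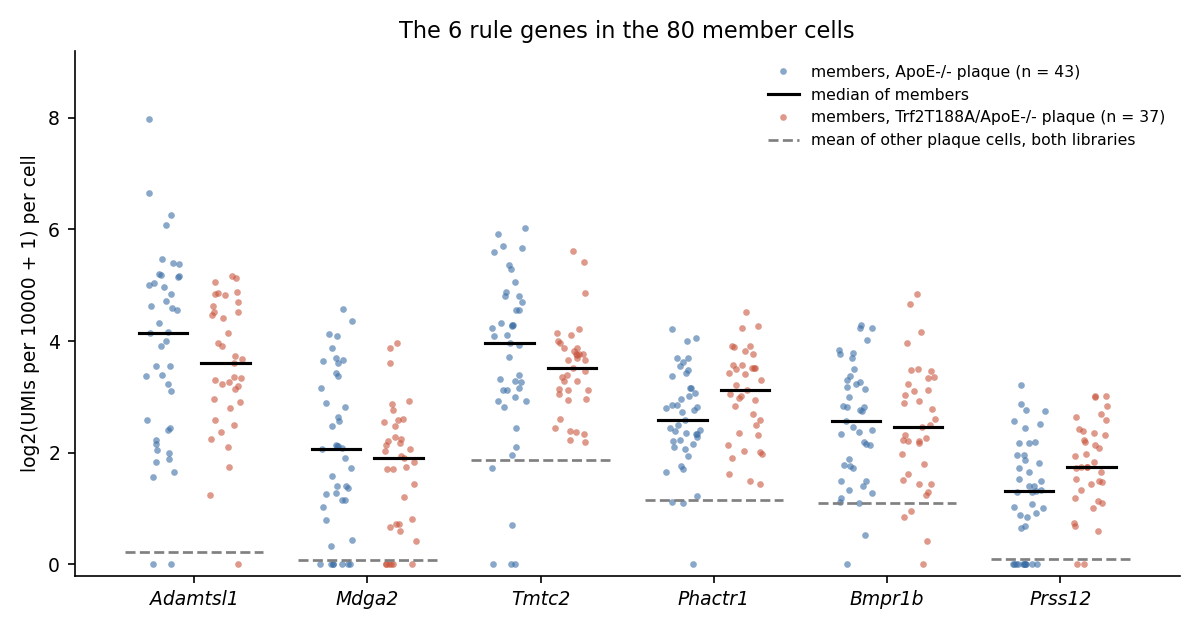
Level of each of the 6 genes of the score in each member cell, as log2(UMIs per 10000 + 1), for the 43 *ApoE*-/- and 37 *Trf2T188A*/*ApoE*-/- members, with the median as a bar and the mean of the 2351 other plaque cells as a dashed line. Medians of *Adamtsl1* and *Mdga2* lie well above the dashed lines near 0, and some members are at 0 for single genes.

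All 6 genes had a UMI in 58 of the 80 members, 5 genes in 12 members, 4 genes in 8, 3 genes in 1 and 2 genes in 1. Among other plaque cells 7 held all 6 genes and 18 held 5. The score ran from 1.83 to 4.28 with a median of 2.55 in members, and its median in other cells was 0.517. The limit fell in a continuous range, since the last cells inside scored 1.834 and 1.832 and the first cells outside 1.823 and 1.806.

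Most members held RNA of the VSMC lineage that the labels name, and single members held little of it. *Acta2* (smooth muscle actin) had a UMI in 80 of 80 members and *Tagln* (SM22 alpha) in 96.3% of them, against 98.6% and 96.3% of other cells, so that these shares do not tell members from other plaque cells. A Confetti UMI was found in 63 of 80 members (78.8%, Clopper-Pearson interval 68.2 to 87.1) and in 84.4% of other cells (82.9 to 85.9). By library the share was 72.1% (56.3 to 84.7) in *ApoE*-/- members and 86.5% (71.2 to 95.5) in *Trf2T188A*/*ApoE*-/- members. All intervals overlapped that of the other cells.

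T cell, macrophage and Schwann or neural genes were low or absent in members. Endothelial, fibroblast and pericyte genes had higher summed medians in members than in other cells. None of 8 T cell genes had a UMI in any member, and of 12 macrophage genes *Ptprc*, *Adgre1*, *Csf1r*, *Fcer1g*, *Tyrobp* and *Itgam* were at 0 in members of both libraries. The summed macrophage level ranged from 0 to 1.34 UMIs per 10000 in *ApoE*-/- members and from 0 to 0.803 in *Trf2T188A*/*ApoE*-/- members. Of 9 Schwann and neural genes *Sox10*, *Mbp*, *Cdh19*, *Elavl3* and *Snap25* were at 0 in both, and the summed level reached at most 2.0 and 0.889. Of 11 endothelial genes *Cdh5*, *Kdr*, *Tek* and *Emcn* were at 0 in members of both libraries. The summed endothelial level had nevertheless a median of 3.61 and 3.77 in members against 1.12 and 1.23 in other cells, and its members included *Thbd* (thrombomodulin) with a mean of 1.76 against 0.272 and *Erg* with 1.69 against 0.804. The 12 fibroblast genes summed to a median of 0.9 and 0.767 in members, within ranges of 0 to 18.6 and 0 to 14.7, against 0.43 and 0.482 in other cells. The means had the opposite order, with 2.21 and 1.62 in members and 2.77 and 2.46 in other cells. UMIs of at least 2 of *Dpt*, *Scara5*, *Pi16*, *Pdgfra* and *Clec3b* were found in 20 of 80 members (25%, 16.0 to 35.9) and in 15.4% of other cells (14 to 16.9). The part of fibroblast-like cells in the results below was not tested beyond leaving such cells out and picking 80 members anew from the rest. Values given without such cells thus also rest on other, lower-scoring members. Of 8 pericyte genes *Higd1b* and *Vtn* were at 0 in members, and *Rgs5* made up most of a summed level of 28.2 and 29.6 against 7.63 and 7.65. The 12 cartilage genes summed to a median of 3.27 and 2.41 in members against 1.68 and 2.62 in other cells. Their summed means were 5.52 and 8.82 against 63.0 and 71.3.

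To see whether the members formed a group apart from the 6 genes that chose them, all plaque cells were clustered after those genes had been removed. Of 13 clusters, a cluster of 75 cells held 62 of the 80 members, or 77.5% of the members and 82.7% of the cluster, with 39 of its cells from the *ApoE*-/- and 36 from the *Trf2T188A*/*ApoE*-/- library. It is called the leading cluster below, and its leading genes included *Rgs5*, *Sfrp2*, *Pde4d* and *Sost*. Among the 20 nearest cells of a member in principal component space, a median of 17.5 were members, against 0 for other cells, where members were 3.29% of all cells. Clustering used genes that vary with the 6 chosen ones, so the overlap describes the cells and is not a test.

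The 18 members outside the leading cluster were scattered and differed from the 62 inside it. They lay in 7 other clusters, of which a low-depth cluster led by *Ifrd1*, *Nav2* and *Dmd* held 5, a cluster led by *C3*, *Cp* and *Lcn2* 4, and a cluster of 13 cells led by *Igfbp3*, *Gpx3* and *Csmd1* 3. These 3 were *ApoE*-/- cells without a Confetti UMI, with *Acta2* at 0.939, 1.02 and 2.91 UMIs per 10000. A cluster of 22 cells whose leading genes included *Tshz2* and *Dpt* held 2, both *ApoE*-/-. Of these, the member with *Adamtsl1* at 252 had no Confetti UMI and *Acta2* at 1.99, and the other had both a Confetti UMI and *Acta2* at 46.7. The median depth of the 18 members was 10106 UMIs against 22478 inside, and a Confetti UMI was present in 61.1% (35.7 to 82.7) against 83.9% (72.3 to 92.0). *Rgs5* averaged 30.4 UMIs per 10000 inside and 4.56 outside, *Acta2* 58.6 and 25.6, and *Cnn1* 8.48 and 2.52. In the other direction *Dcn*, the proteoglycan decorin, averaged 4.48 inside and 30.9 outside, and *Igfbp4* 0.572 and 9.94. Of the 40 members with the highest score 38 lay in the leading cluster, and of the 40 with the lowest score 24.

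**Figure D2:**
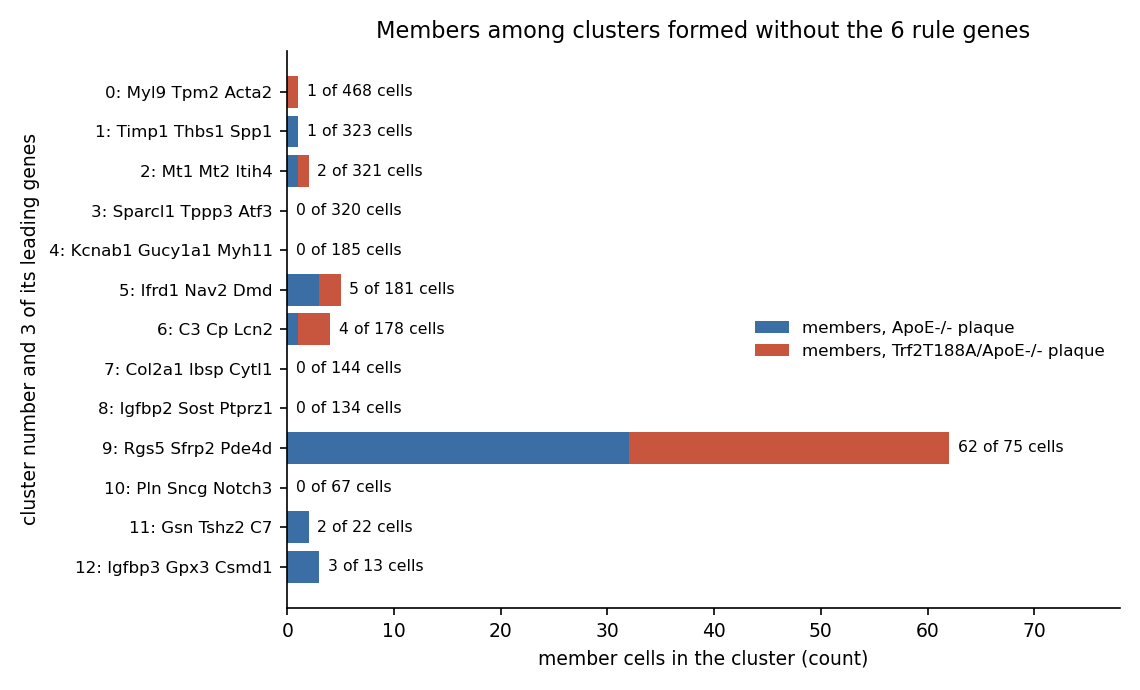
Number of member cells (x axis) in each of 13 clusters of plaque cells formed without the 6 genes of the score, coloured by library, with the count of members and of all cells beside each bar. Cluster 9, led by *Rgs5*, *Sfrp2* and *Pde4d*, holds 62 of the 80 members among its 75 cells, and no other cluster holds more than 5.

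Genes outside the score were compared by the log2 ratio of mean UMIs per 10000 in members over other plaque cells of the same library, with 1 added to each mean, among 10976 genes with a UMI in at least 10% of members or of other cells. In both libraries 33 genes had a ratio of at least 1, that is 0.301% of the genes tested. In both libraries 20 genes had a ratio of −1 or less, or 0.182%. The 33 genes were 62.3% of the 53 that passed in the *ApoE*-/- library and 76.7% of the 43 that passed in the *Trf2T188A*/*ApoE*-/- library. These counts have no test, since genes that vary with the score are high in members by its choice. A gene near 0 in other cells could enter through members alone and could pass only upwards, here and in the gene lists below.

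The first of these genes by the smaller of its 2 ratios was *Rgs5*, which encodes a brake on G protein signalling found in pericytes and arterial smooth muscle. It ranged from 0 to 79.6 UMIs per 10000 in *ApoE*-/- members (median 20.9) and from 0 to 72.2 in *Trf2T188A*/*ApoE*-/- members (median 21.9), while the median of other cells was 0 in each library. The means were 23.6 against 3.58 and 25.7 against 4.19, giving log2 ratios of 2.43 and 2.36. Members and other cells overlapped, as single other cells reached 180, but 71 of 80 members lay above the median of the other cells. *Sfrp2*, a secreted Wnt modulator, averaged 12.3 against 3.12 in the *ApoE*-/- library and 28.2 against 4.07 in the *Trf2T188A*/*ApoE*-/- library, with log2 ratios of 1.69 and 2.53. *Pde4d*, which degrades cyclic AMP, averaged 8.41 against 1.68 and 9.95 against 1.83, and 68 of 80 members lay above the median of other cells.

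Ion channel genes followed. *Kcnip4*, a partner of potassium channels, had log2 ratios of 1.67 and 1.97, and *Cacna1d*, the pore of an L-type calcium channel, 1.49 and 1.35. The axon guidance ligand *Sema3c* gave 1.39 and 1.46 and the zinc finger factor *Tshz2* 1.44 and 1.36, with a UMI in 77.5% of members and 9.53% of other cells. *Lama2* (laminin alpha 2) gave 1.73 and 1.49, *Col15a1* (a collagen of basement membranes) 1.32 and 1.47, the xylosyltransferase *Gxylt2* 1.31 and 1.77, and the unnamed gene 2210407C18Rik 1.37 and 1.36.

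**Figure D3:**
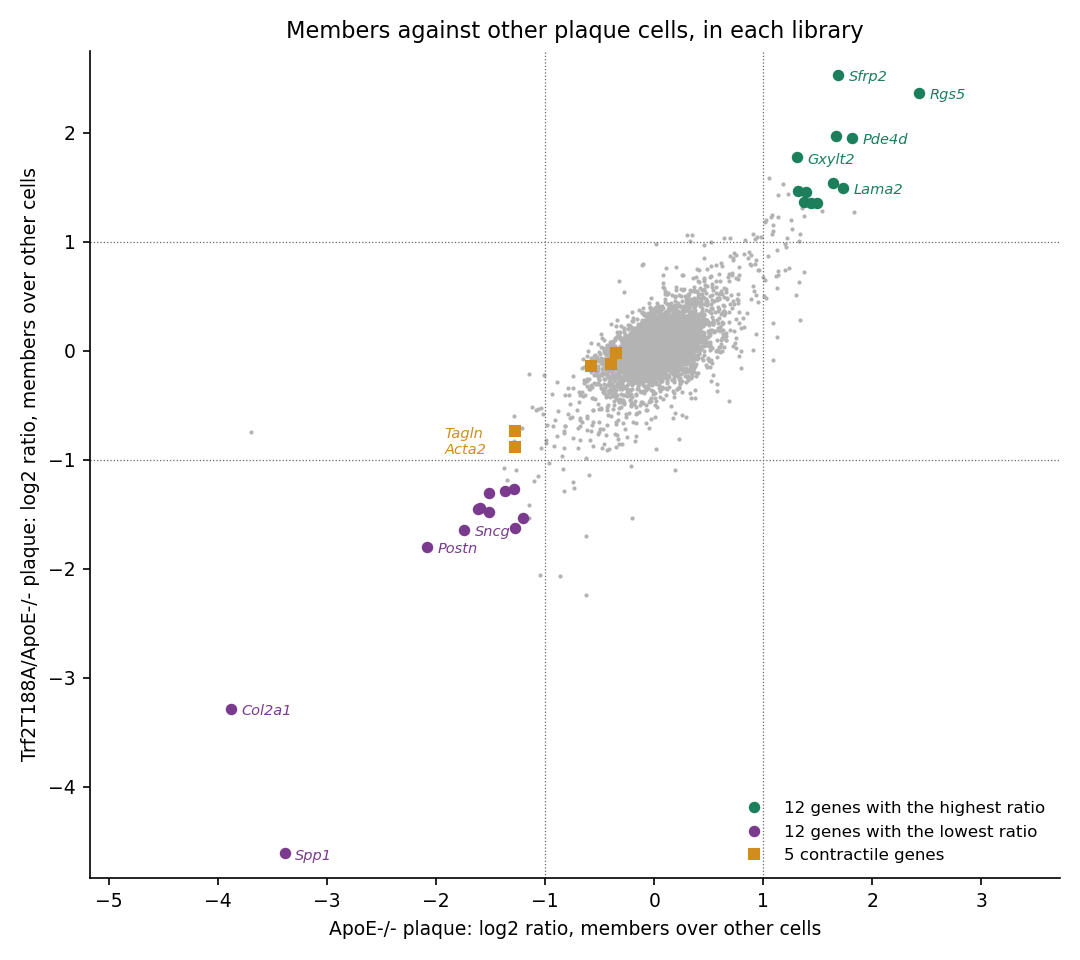
Log2 ratio of mean UMIs per 10000 (1 added to each mean) in members over other plaque cells, in the *ApoE*-/- library (x axis) and the *Trf2T188A*/*ApoE*-/- library (y axis), for 10976 genes without those of the score. Dotted lines mark ratios of 1 and −1. *Rgs5*, *Sfrp2* and *Pde4d* lie at the upper right, *Spp1* and *Col2a1* at the lower left, and *Acta2* and *Tagln* below 0 in both libraries.

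In the BMP list of 40 genes, 33 besides *Bmpr1b* were tested, and 24 lay above 0 and 1 below 0 in both libraries, as did 36.8% and 24.5% of all genes tested. At a limit of 0.5 in both libraries, which 0.984% of all genes tested passed upwards and 0.747% downwards, 5 passed upwards and 0 downwards. The list had a median log2 ratio of 0.15 over both libraries together, against 0.02 for all genes tested. Among ligands *Gdf10* averaged 3.71 against 0.818 UMIs per 10000 in the *ApoE*-/- library and 3.84 against 1.06 in the other, and the activin subunit gene *Inhba* 4.58 against 1.79 and 3.56 against 1.86. Among receptors other than *Bmpr1b*, *Bmpr1a* gave log2 ratios of 0.18 and −0.03 and *Bmpr2* 0.33 and 0.07. Among antagonists *Nbl1* gave 0.91 and 1.07 and *Sost*, which encodes sclerostin, 1.54 and 1.28. Noggin (*Nog*) was rare, with a UMI in 19 of 80 members, a mean of 0.129 and 0.148 UMIs per 10000 and a mean of 0.00533 and 0.00171 in other cells. *Grem1* averaged 1.10 against 0.0807 and 0.376 against 0.0106. With a UMI in 0.723% and 1.91% of other cells, *Nog* and *Grem1* entered the test only through members. Of the target genes the inhibitory *Smad6* gave 0.70 and 0.51, and 0.37 and 0.03 for members in the leading cluster, whose mean was 0.913 UMIs per 10000 against 3.61 in members outside it. It is 1 of the 5 genes that passed 0.5. *Id3* gave 0.39 and 0.75, while *Id1* gave 0.02 and −0.15.

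Secreted Wnt modulators were both higher and lower. Of 10 genes of the list that were tested, *Sfrp2*, *Sfrp4*, *Frzb* and *Sost* had ratios of at least 0.5 in both libraries and *Wif1* and *Wnt16* of −0.5 or less. Of all genes tested 0.984% passed upwards and 0.747% downwards. *Frzb* averaged 3.86 against 1.99 and 5.65 against 2.64. *Wnt16* averaged 0.0675 against 0.883 and 0.124 against 0.819.

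Of 18 elastic fibre genes tested, 14 lay above 0 and 2 below 0 in both libraries, beside the 36.8% and 24.5% of all genes. Ratios of at least 0.5 in both libraries were found for 6 of them and of −0.5 or less for 1, beside 0.984% and 0.747% of all genes. The list had a median log2 ratio of 0.40, against 0.02 for all genes tested. *Mfap5*, a microfibril protein, averaged 7.18 against 2.72 UMIs per 10000 and 8.63 against 2.58. *Ltbp1*, which ties latent TGF-beta to the matrix, averaged 17.4 against 7.70 and 19.9 against 7.83, and *Fbln5*, needed to assemble elastic fibres, 14.5 against 7.14 and 18.8 against 8.72. Elastin itself averaged 19.5 against 14 and 39.7 against 19.7, with log2 ratios of 0.45 and 0.97. *Fbln2* was the exception below, with −0.57 and −0.68. Of the 14 tested genes of the ADAMTS and ADAMTS-like family other than *Adamtsl1*, 0 passed 0.5 in either direction in both libraries, and *Adamtsl3* gave 0.31 and 0.24.

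Of 20 basement membrane genes tested, *Lama2*, *Lamc3*, *Col15a1* and *Smoc1* had ratios of at least 1 in both libraries and *Col4a5* and *Col4a6* of at least 0.5. Of all genes tested 0.301% passed 1 and 0.984% passed 0.5. *Lamc3* averaged 1.69 against 0.299 and 3.07 against 0.362, and *Smoc1* 10.1 against 3.76 and 8.90 against 3.83. The more widely expressed chain genes *Col4a1* and *Lamc1* had ratios near 0, as *Col4a1* gave −0.18 and −0.28 and *Lamc1* 0.10 and 0.08. Of 22 genes of neural adhesion, *Mdga2* and *Prss12* belonged to the score and 10 others were tested. Ratios of at least 0.5 in both libraries were found for 6 of the 10 and of −0.5 or less for 0, beside 0.984% and 0.747% of all genes. Those near 0 in other cells, such as *Negr1*, could pass only upwards. *Negr1*, a neuronal adhesion molecule, averaged 2.68 against 0.0311 and 1.41 against 0.00164, *Cdh18* 2.06 against 0.194 and 1.98 against 0.204, and *Ncam1* 11.7 against 6.71 and 13.0 against 6.77. The partners through which *Mdga2* is known to act were low, with *Nlgn2* at 0.248 and 0.238 UMIs per 10000 in members.

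Among genes of calcium, potassium and cyclic nucleotide handling some passed 0.5 in both libraries, as did 0.984% of all genes tested upwards and 0.747% downwards. Of 18 channel genes tested, *Cacna1d*, *Cacna2d3* and *Kcnip4* passed 0.5 upwards and *Kcnab1* downwards, while *Cacna1c*, the main arterial calcium channel, gave 0.19 and −0.29. Of 18 cyclic nucleotide genes tested, *Pde4d*, *Pde5a* and *Rgs5* passed upwards and *Gucy1a1*, a subunit of the nitric oxide receptor, downwards. *Pde5a*, which degrades cyclic GMP, averaged 5.66 against 1.91 and 4.29 against 1.69, and *Gucy1a1* 1.14 against 2.72 and 1.26 against 2.37.

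Of 21 mesenchymal transcription factors tested, 6 had ratios of at least 0.5 in both libraries and 0 of −0.5 or less, beside 0.984% and 0.747% of all genes tested. The 6 included *Prrx1*, *Prrx2*, *Osr1*, *Tshz2* and *Prdm6*. *Prrx1* averaged 4.45 against 1.36 and 3.69 against 1.43, and *Osr1* 3.74 against 1.25 and 4.09 against 1.17. *Runx1* gave −0.46 and −0.86. Of 16 tested Hox and other regional identity genes 0 passed 0.5 in both libraries.

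The genes lower in members were led by those of cartilage-like and matrix-rich cells. *Spp1* (osteopontin) averaged 0.940 UMIs per 10000 against 19.3 in the *ApoE*-/- library and 0.630 against 38.8 in the other, with log2 ratios of −3.39 and −4.61. Its median was 0 or near 0 in members and in other cells alike, at 0 and 0.217 in members and 0.282 and 0.523 in other cells of the 2 libraries, so that the difference lay in a minority of other cells that reached 1632. *Col2a1*, the collagen of cartilage, averaged 0.232 against 17.1 and 0.266 against 11.3 and had a UMI in 32.5% of members and 32.8% of other cells. *Postn* (periostin) differed across the whole range, with a median of 0 and 0.384 in members and 6.44 and 6.80 in other cells. Only 5 of 80 members lay above the median of other cells for *Postn*.

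*Sncg* (gamma-synuclein) had a UMI in 17.5% of members and 63.9% of other cells, with log2 ratios of −1.74 and −1.64. *Rbp4*, a retinol carrier, had a UMI in 17.5% and 64.7%. *Prelp* and *Crip1* gave −1.28 and −1.27, and −1.52 and −1.48. The cartilage genes *Cytl1*, *Chad* and *Comp* gave ratios between −1.28 and −1.62, *Ecrg4* −1.28 and −1.63, and lubricin (*Prg4*) −1.20 and −1.53. Of 9 cartilage genes tested 7 had ratios of −0.5 or less in both libraries, beside 0.747% of all genes tested. Without the 144 cells of the cluster led by *Col2a1*, a comparison added once values were known, 12 genes passed −1 in both libraries in place of 20, and 11 of them were among the 20.

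De-differentiation genes named by the study had mostly lower means. Of 9 tested, *Tnfrsf11b*, *Fmod*, *Lum*, *Dcn*, *Fn1* and *Col1a1* had ratios of −0.5 or less in both libraries and *Sfrp4* of at least 0.5. Of all genes tested 0.747% and 0.984% had such ratios. The median was −0.73 for the list and 0.02 for all genes tested. The list was named by the study and is not independent evidence of a direction in these cells. *Col1a1* averaged 6.45 against 18.3 and 9.47 against 21.1. *Sfrp4* averaged 1.31 against 0.238 and 1.01 against 0.335, with a UMI in 38 of 80 members. For members in the leading cluster *Sfrp4* gave 0.20 and 0.49, and its mean was 0.643 there against 3.0 in members outside the cluster. *Dcn* gave −0.63 and −2.24. A minority of other cells with high values set several of these means. The median of *Dcn* was 1.17 in members and 1.03 in other cells, and that of *Fn1* 9.58 and 8.71, with 46 of 80 members above the median of other cells for each gene. For *Lum* 38 of 80 members and for *Tnfrsf11b* 20 of 80 lay above it. For members in the leading cluster *Fn1* gave −0.43 and −1.15. Of 5 senescence genes tested 0 passed 0.5 in either direction, and *Cdkn2a*, which encodes p16, had a UMI in 2 of 80 members (2.50%, 0.304 to 8.74) and 4.38% of other cells (3.59 to 5.29).

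Contractile genes were lower in members, and unequally so. *Acta2* ranged from 0.939 to 178 UMIs per 10000 in *ApoE*-/- members (median 44.0) and from 1.33 to 147 in *Trf2T188A*/*ApoE*-/- members (median 52.9), against medians of 117 and 91.3 in other cells. The ranges overlapped fully, and 6 of 80 members lay above the median of other cells. The log2 ratios were −1.27 and −0.89 for *Acta2*, −1.27 and −0.74 for *Tagln*, and −0.58 and −0.14 for *Myh11*. *Cnn1* gave −0.40 and −0.12 and *Smtn* −0.35 and −0.02. Over these 5 genes the mean log2 ratio was −0.61 (−0.64 to −0.57) for both libraries together, −0.78 in the *ApoE*-/- and −0.38 in the *Trf2T188A*/*ApoE*-/- library. Of 16 contractile genes tested 13 lay below 0 in both libraries, beside 24.5% of all genes, and 3 passed −0.5, beside 0.747%. The 3 were *Acta2*, *Tagln* and *Tpm2*, whereas *Mylk* gave −0.17 and 0.21 and *Myocd*, the master coactivator of the programme, −0.09 and −0.24. When the difference of mean log2(value + 1) over cells was taken instead, the mean over 5 genes was −0.30 and its sign turned to 0.09 in the *Trf2T188A*/*ApoE*-/- library.

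A further 3 sets of cells were picked in the same way by genes that lead other VSMC groups, and served as further comparisons. They were the 80 cells highest for *Pln*, *Sncg* and *Notch3*, the 80 highest for *Itih4*, *Wnt16* and *Fgl2*, and the 80 highest for *Sparcl1* and *Sost*. The *Pln* and *Sparcl1* sets were picked as contractile cells and the *Itih4* set as intermediate ones. No set was picked for *Rgs5*, so the order of the groups below holds for these sets only. No member was among the first 2 sets, and 7 members in the third were left out of it, leaving 73 cells. Of the 33 genes higher in members than in all other cells, 32 also had a ratio of at least 1 in both libraries over the *Pln* set, 29 over the *Itih4* set and 24 over the *Sparcl1* set. The 33 genes were picked in these same members over a pool that held the 3 sets. Most were thus likely to pass again, and the counts are a description only. In all, 60 genes (0.547% of those tested), 42 (0.377%) and 46 (0.423%) passed 1 in members over these sets, and 28 (0.255%), 22 (0.198%) and 23 (0.212%) passed −1.

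Members held the lowest actin of the 4 groups. *Acta2* averaged 51.1 UMIs per 10000 in members, 142 in the *Pln* set, 124 in the *Itih4* set and 181 in the *Sparcl1* set, and the mean log2 ratio of the 5 contractile genes was −0.87, −0.83 and −1.22 against them. *Rgs5* averaged 24.6 in members and 5.08, 5.72 and 10.1 in the sets, and *Sfrp2* 19.6 against 2.46, 1.83 and 1.80. *Postn* averaged 1.49 in members and 6.21, 10.9 and 9.07 in the sets. *Lama2* averaged 5.78 against 0.723, 0.794 and 0.740. For *Acta2*, *Rgs5*, *Sfrp2* and *Postn* the order of members against each set was the same in both libraries. *Eln* averaged 19.5 in members and 19.0 in the *Pln* set of the *ApoE*-/- library, where the ratio was 0.04, and 39.7 against 14.1 in the *Trf2T188A*/*ApoE*-/- library, where it was 1.43.

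**Figure D4:**
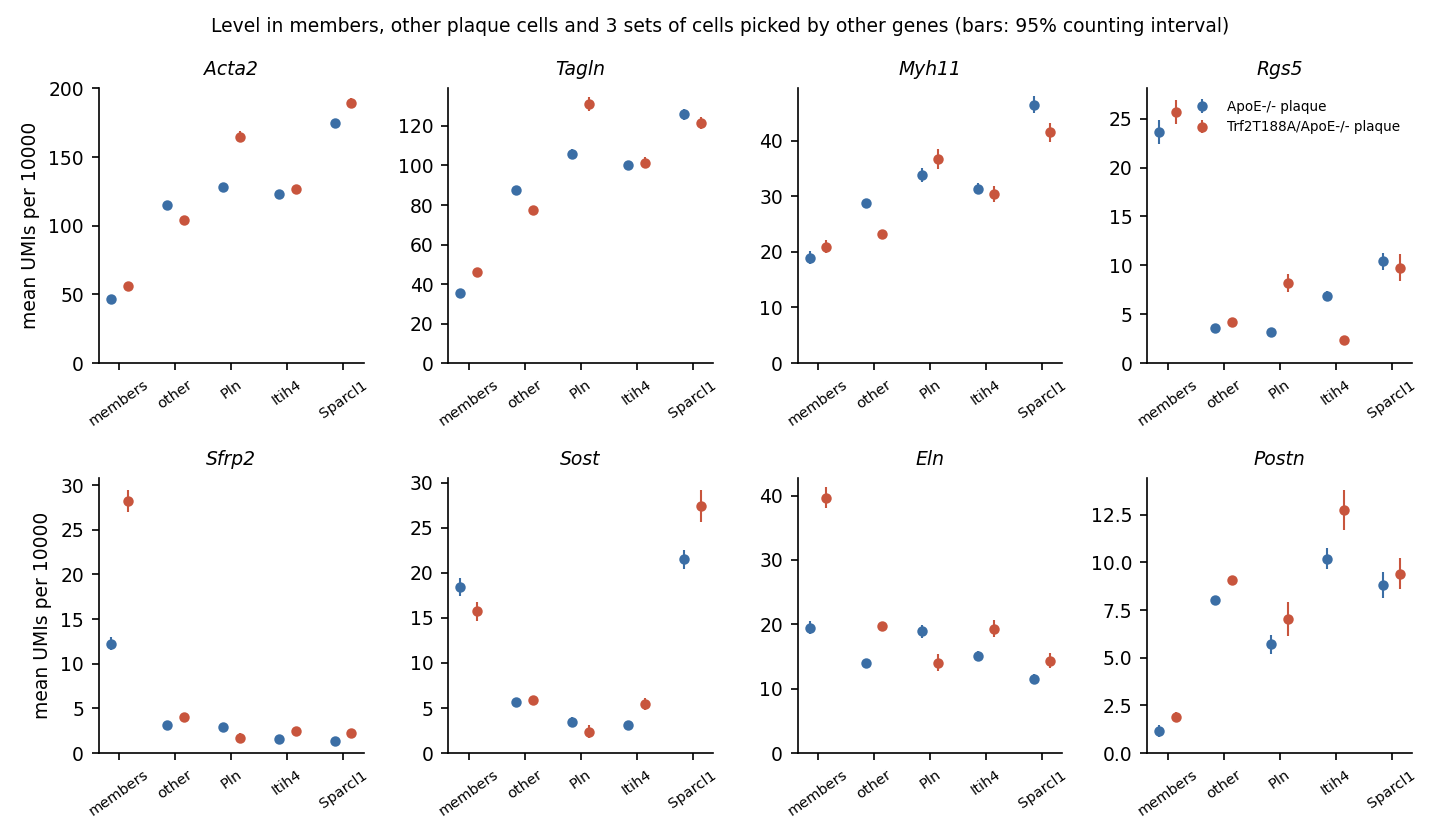
Mean UMIs per 10000 of 8 genes (y axis, from 0) in members, other plaque cells and the cells highest for *Pln*, *Sncg* and *Notch3*, for *Itih4*, *Wnt16* and *Fgl2*, and for *Sparcl1* and *Sost*, per library, with 95% counting intervals as bars. Members are lowest for *Acta2*, *Tagln*, *Myh11* and *Postn* and highest for *Rgs5* and *Sfrp2*. *Sost* helped to pick the last set.

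Measures of library quality moved with membership. Genes spanning at least 100 kb in RefSeq (GRCm38.p6) took a median of 18.5% of the UMIs of a member and 15.1% of those of other cells. Without the genes of the score and the 33 higher genes it was 17.2% and 14.8%. Ribosomal protein genes took 6.54% and 8.01%. Of the 6 genes of the score 5 span at least 100 kb. So did 17 of the 32 higher genes with a span (53.1%), 1 of the 20 lower genes (5.0%) and 14.8% of all genes tested. Nuclear *Malat1* gave log2 ratios of 0.41 and −0.03, and 0 of 4 nuclear RNAs passed 0.5 in both libraries. Median depth was 20946 UMIs in members and 23402 in other cells, and the mitochondrial share 2.53% and 2.23%. The part of unspliced or nuclear RNA in the higher genes was not tested. Cells with fewer than 8000 UMIs were then left out, and the other 2217 were thinned to 8000 UMIs and scored anew. Among the 80 members picked from these, 31 of the 33 higher genes and 18 of the 20 lower genes passed again.

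Between the genotypes, the *ApoE*-/- library held 43 members among 1502 cells (2.86%, 2.08 to 3.84) and the *Trf2T188A*/*ApoE*-/- library 37 among 929 (3.98%, 2.82 to 5.45). The difference of 1.12 percentage points had an interval of −0.397 to 2.78, which includes 0. Shares also depend on which clusters were kept before deposit and on the lowest number of genes allowed per cell. The study set this limit lower for the *Trf2T188A*/*ApoE*-/- library, whose cells held at least 1056 genes against 1531 in the *ApoE*-/- library. *Trf2T188A*/*ApoE*-/- members with 1056 and 1354 genes lay below the lowest *ApoE*-/- cell. The part of this limit in the differences between the genotypes was not tested.

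Within members, 11150 genes had a UMI in at least 10% of members of either library. In *Trf2T188A*/*ApoE*-/- members 6 genes had a log2 ratio of at least 1 over *ApoE*-/- members (0.0538% of those tested) and 8 of −1 or less (0.0717%). The 6 were *Ibsp*, *Lcn2*, *Sfrp2*, *Col3a1*, *Lum* and *Ptgs2*, and the 8 included *Csmd1*, *Igfbp4*, *Enpp2*, *Meg3*, *Dcn*, *Coch* and *Igfbp5*. Several of these values rested on 1 cell or on members outside the leading cluster, and those described are therefore given with the value without the highest cell of each library or within the 32 *ApoE*-/- and 30 *Trf2T188A*/*ApoE*-/- members of that cluster.

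*Sfrp2*, *Col3a1* and *Eln*, the last just under the limit of 1, had higher medians and means in *Trf2T188A*/*ApoE*-/- members. *Sfrp2* ranged from 0 to 126 UMIs per 10000 (median 5.32) in *ApoE*-/- members and from 0 to 131 (median 14.9) in *Trf2T188A*/*ApoE*-/- members. Its log2 ratio was 1.14 (1.04 to 1.24), and 1.01 within the leading cluster, while it was 0.30 in other plaque cells. For 120 members it was 0.91, below the limit. *Col3a1*, a fibrillar collagen, ranged from 0 to 66.1 (median 6.85) and from 2.58 to 124 (median 12.3). Its ratio was 1.14 (1.02 to 1.25), 1.37 within the cluster and 0.35 in other cells. It was 0.98 for 120 members, 0.93 with *Adamtsl1* out of the score and 0.85 without cells with UMIs of at least 2 fibroblast genes. *Eln* ranged from 0 to 88.6 (median 16.1) and from 3.66 to 178 (median 30.2), with a ratio of 0.99 (0.90 to 1.08), 0.87 within the cluster and 0.47 in other cells. For these 3 genes the ranges overlapped. Matrix genes did not move together, as of 18 elastic fibre genes 4 had a ratio of at least 0.5 and 1 of −0.5 or less, with a median of 0.18, and of 20 basement membrane genes 1 and 2 did, with a median of −0.05. Over all genes tested between the genotypes, 0.475% passed 0.5 upwards and 1.01% downwards. *Lum* gave 1.09 and *Lcn2* 1.39, and within the cluster 1.28 and 1.6, with medians of 0.25 and 1.28 for *Lum* and of 0 in both libraries for *Lcn2*, so that a minority of cells carried them. In other plaque cells *Lum* gave 0.79 and *Lcn2* 0.98, so that both were also higher outside the members.

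*Enpp2*, which encodes autotaxin, and the non-coding RNA *Meg3* were lower. *Enpp2* ranged from 0 to 15.1 (median 1.22) in *ApoE*-/- members and from 0 to 5.91 (median 0.23) in *Trf2T188A*/*ApoE*-/- members, with a ratio of −1.23 (−1.47 to −0.99), −1.46 within the cluster and −0.05 in other cells. *Meg3* ranged from 0 to 29.5 (median 3.97) and from 0 to 6.12 (median 1.94), with a ratio of −1.16 (−1.35 to −0.97), −1.01 within the cluster and −0.11 in other cells. The ratio of *Meg3* was −0.57 for 120 members. With members picked anew it was −0.62 among cells thinned to 8000 UMIs and −0.72 without cells with UMIs of at least 2 fibroblast genes. *Coch* gave −1.09 and −0.68 within the cluster, with a UMI in 14 of 43 and 5 of 37 members.

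The remaining values came from few cells. *Ibsp* gave 1.90, but 97.6% of its summed level in *Trf2T188A*/*ApoE*-/- members lay in 1 cell, and without the highest cell of each library the ratio was −0.02. *Ptgs2* gave 1.07 and 0.13 without those cells, and *Trmt61b*, just under the limit at 0.99, 0.15. *Csmd1*, *Igfbp4* and *Igfbp5*, of which *Csmd1* and *Igfbp4* lead the small cluster that held 3 *ApoE*-/- members and 0 *Trf2T188A*/*ApoE*-/- members, gave −1.59, −1.31 and −1.06 over all members and 0.02, 0.45 and 0.09 within the leading cluster. *Dcn* gave −1.15 over all members and 0.54 within the leading cluster.

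The 5 contractile genes had a mean log2 ratio of 0.21 (0.15 to 0.28) between *Trf2T188A*/*ApoE*-/- and *ApoE*-/- members and of −0.18 (−0.19 to −0.17) between other cells of the same libraries. Within the leading cluster the ratio of members was 0.06, and it was −0.01 when *Adamtsl1* was left out of the score or cells with UMIs of at least 2 fibroblast genes were left out, and −0.003 after thinning. Among the 40 BMP genes 34 were tested within members, and 0 passed 1 in either direction. *Bmpr1b* itself gave 0.01 (−0.17 to 0.19), whereas *Adamtsl1* gave −0.85 and *Tmtc2* −0.56, which are descriptions only, since these genes chose the cells. Without the highest cell of each library they gave −0.60 and −0.59, and within the leading cluster −0.65 and −0.51.

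**Figure D5:**
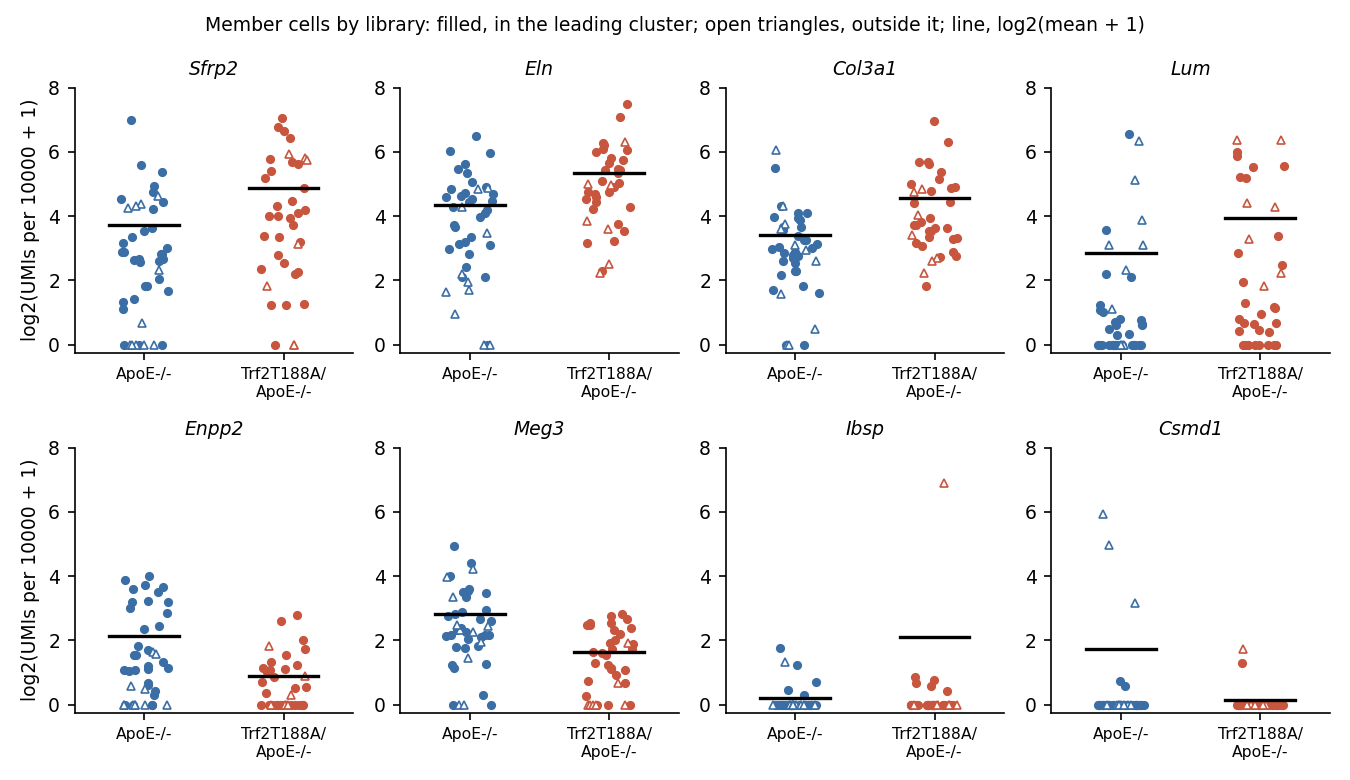
Each member cell by library (x axis) for 8 genes, as log2(UMIs per 10000 + 1), with filled circles for members in the leading cluster, open triangles for members outside it and a line at log2(mean + 1). *Sfrp2*, *Eln* and *Col3a1* are shifted upwards and *Enpp2* and *Meg3* downwards in *Trf2T188A*/*ApoE*-/- members, while 1 open triangle carries *Ibsp* and 3 carry *Csmd1*.

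In ligated carotid arteries no cell reached the lowest score of a plaque member. There were 0 of 4967 control cells, which allows a share of up to 0.0604%, and 0 of 5392 *Trf2T188A* cells, which allows up to 0.0556%. The highest score was 1.32 in the control library, in a cell that held all 6 genes, and 0.935 in the *Trf2T188A* library. *Adamtsl1* had a UMI in 0.544% of control and 0.705% of *Trf2T188A* ligated cells, against 9.39% and 9.47% of all plaque cells of the 2 plaque libraries, and *Mdga2* in 0.101% and 0.0742% against 5.86% and 6.03%. *Sost* and *Sfrp2*, which are higher in members and shorter genes, had a UMI in 90.2% and 69.0% of control ligated cells. Genes spanning at least 100 kb took a median of 9.94% and 9.36% of UMIs in ligated cells. The ligation libraries were shallower, with a median of 8631 and 11153 UMIs per cell, and were processed with another Cell Ranger version. The plaque libraries came from *ApoE*-/- mice on a high fat diet and were limited to clusters that express Confetti, none of which is stated for the ligated arteries. Artery, procedure, age, tamoxifen, *ApoE* genotype, diet, choice of cells, depth and processing cannot be told apart in this comparison.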

How the data were processed

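Single-cell RNA libraries were deposited by the authors as 1 table of normalised values per library, 2 of plaque and 2 of ligated carotid arteries. Per the labels and the study's methods, reads were aligned and counted with Cell Ranger. Cells with few genes or a high mitochondrial share were removed before deposit, as were plaque clusters without Confetti expression. The lowest number of genes allowed per cell was smaller in the *Trf2T188A*/*ApoE*-/- than in the *ApoE*-/- plaque library. The submitters' processing notes name Cell Ranger 7.0.0, Seurat 4.3.0 and R 4.2.2 for plaque and Cell Ranger 6.1.2, Seurat 3.2.1 and R 3.6.2 for ligation. Whether intronic reads or strand were counted is not given in the sources used here. The deposited signal values were counts divided by the cell's total and scaled to 10000, and dividing each cell by its smallest step gave whole UMIs for 100% of values (tolerance 0.01), so that depth per cell was known. No columns of other samples were present (0).

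Members were ranked as described in the report. Means of UMIs per 10000 were compared as log2 ratios with a pseudocount of 1 among genes with a UMI in at least 10% of cells of either group, and a gene was called at a log2 ratio of at least 1 or −1 or less, in each library for members against other cells. With 1 library per genotype no test was made. Intervals are Clopper-Pearson for shares and from Poisson counting error for ratios. Named genes were the 12 highest and 12 lowest by the library nearer to 0, the 8 highest and 8 lowest between libraries whose interval left out 0, and members of 29 gene lists, of which some are not reported here. Clusters used Seurat with 2000 variable genes (1994 without those of the score), 18 principal components and resolution 0.9. The scripts were tested on simulated data. The members and lists were chosen with earlier results of these data known. Alternatives changed the number of members, the score, depth, pseudocount, form of the ratio, detection filter and cells admitted. Clustering used Seurat 5.3.0 (Matrix 1.6.5) under R 4.3.3, and all else in Python 3.11.15 with scanpy 1.11.5, pandas 2.3.3, matplotlib 3.10.9, scipy 1.17.1 and numpy 2.4.6.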

Additional observations from a re-analysis of the deposited data

Results flagged for a closer look

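In 3 results members and other plaque cells moved in opposite directions between the genotypes, and none of these differences was tested, since each genotype had 1 library. The mean log2 ratio of the 5 contractile genes in *Trf2T188A*/*ApoE*-/- over *ApoE*-/- cells was 0.21 in members and −0.18 in other cells. *Ibsp*, which encodes bone sialoprotein, gave 1.90 in members and −1.06 in other cells, and 1 cell held 97.6% of its summed level in *Trf2T188A*/*ApoE*-/- members. *Dcn* gave −1.15 in members and 0.47 in other cells, and 0.54 in members within the leading cluster.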

How the results depend on the processing

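No paired analysis was possible because there was 1 library per genotype, and leaving out a replicate was likewise impossible. In the doublet score, Confetti, fibroblast-gene and thinning settings cells were left out first. The 80 highest scores were then picked anew among those left, so that cells below the first limit could become members. Thinning left out cells with fewer than 8000 UMIs and kept 2217. The difference in the share of members stayed above 0 under each alternative that gave one, from 1.05 to 2.06 percentage points. The mean log2 ratio of the 5 contractile genes in members over other cells, −0.61, kept its sign for both libraries together, with −0.53 for 60 members, −0.30 as a difference of mean log2 values, −0.47 as a ratio of summed UMIs, −0.65 without the highest doublet scores, −0.57 among cells with a Confetti UMI, −0.44 within the leading cluster and −0.69 without the cluster led by *Col2a1*. The last 2 settings were chosen after seeing the data. Between the genotypes the mean in members, 0.21, was 0.045 for 120 members, 0.30 as a difference of mean log2 values, 0.079 as a ratio of summed UMIs, 0.29 without the highest doublet scores, 0.041 with a Confetti UMI and 0.061 within the leading cluster, and it turned to −0.0091 with *Adamtsl1* out of the score, −0.0032 after thinning and −0.0093 without cells with UMIs of at least 2 fibroblast genes.

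The 33 genes higher in members became 18 for 120 members, 143 with a pseudocount of 0.1, 20 by mean log2 values and 19 without fibroblast-gene cells, and the 20 lower genes 97 with a pseudocount of 0.1, 6 by mean log2 values and 12 without the *Col2a1* cluster. Between the genotypes the 6 higher genes became 135 with a pseudocount of 0.1 and 10 by summed UMIs. The 8 lower genes became 5 for 60 members, 2 for 120 members, 3 with *Adamtsl1* out of the score, 5 after thinning, 234 with a pseudocount of 0.1, 0 by mean log2 values, 3 with a Confetti UMI, 4 without fibroblast-gene cells and 3 within the leading cluster. The share of members in the leading cluster, 77.5%, was 90.0% for 60 members and 59.2% for 120. It was 65.0% for the 80 members picked anew without fibroblast-gene cells. Genes higher than in the *Pln*, *Itih4* and *Sparcl1* sets numbered 320, 304 and 326 with a pseudocount of 0.1, and 26 and 21 for the latter 2 sets by mean log2 values.

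Of the genes with the highest and lowest ratios, for which alone the alternatives were recomputed, none reversed between members and other cells. They were the most extreme in these same cells, so a turn of sign was unlikely from the start. Of their recomputed values 124 stayed within the counting interval of the main value and 152 moved beyond it. For the genotype ratios 72 stayed within it, 75 moved beyond it and 18 turned in sign. Between the genotypes *Ibsp* turned to −0.061 for 60 members, −0.074 without the highest doublet scores and −0.075 within the leading cluster. *Dcn* turned to 0.14 for 60 members, 0.20 by mean log2 values, 0.13 with a Confetti UMI, 0.78 without fibroblast-gene cells and 0.54 within the leading cluster. *Ptgs2* turned to −0.37 for 120 members, −0.44 after thinning, −0.46 without the highest doublet scores and −0.28 without fibroblast-gene cells. *Igfbp5* turned to 0.066 with *Adamtsl1* out of the score and 0.089 within the leading cluster, *Igfbp4* to 0.31 with a Confetti UMI and 0.45 within the cluster, and *Csmd1* to 0.035 without fibroblast-gene cells and 0.016 within the cluster. The cause was not tested, nor was the part of depth in genes with means near 1 UMI per 10000.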

Other observations

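Of the Confetti reporters, a UMI of the YFP transcript was found in 45 of 80 members (56.2%, 44.7 to 67.3) and 49.5% of other cells, of the cyan reporter in 37 of 80 (46.2%, 35 to 57.8) and 37.9%, of the red reporter in 13 of 80 (16.2%, 8.95 to 26.2) and 22.6%, and of the green reporter in 2 of 80 (2.50%, 0.304 to 8.74) and 9.95% (8.77 to 11.2). The 13 other cells of the leading cluster, which the score left out, had a mean of 22.1 UMIs per 10000 for *Rgs5* and 75.6 for *Acta2*, against 30.4 and 58.6 in the 62 members there.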
